A study of Mus musculus with 4 samples.

Results

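The circadian clock genes were followed in the mammary gland of young mice with and without the matrix metalloproteinase Mt1-mmp (gene symbol Mmp14). The 10 genes were Per1, Per2, Per3, Cry1, Cry2, Clock, Nr1d1, Nr1d2, Dbp and Tef, of 17097 genes with a probe set of their own on the array. They were chosen by name, with every probe set annotated to that gene alone, and each gene is led by its brightest probe set, judged by the mean of all arrays. This gave 19 probe sets for 9 of the genes. Nr1d1 was not analysed here, because no probe set was listed for it alone. All 9 genes had a leading probe set above the brightness limit of 4.95 (log2), the median over the probe sets of the array, and were tested, as were 14 of the 19 probe sets.

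Intact inguinal mammary gland, which holds epithelium within a fat pad, was taken at postnatal day 10 from Mt1-mmp(-/-) mice, in which the gene is inactive in every cell of the body, and from Mt1-mmp(+/+) littermates, all on an outbred Swiss Black background. Each genotype had 2 samples, called biological replicates in the labels, and each sample was hybridised to 1 Affymetrix array that reads transcripts near the 3-prime end. Sex, litter and any pooling of animals are not given in the sources used here, and neither is the hour of day of collection, so that hour and genotype cannot be told apart for genes that cycle daily. In whole tissue, fewer cells of a type and less RNA per cell cannot be told apart either. Values are log2 expression from RMA. This method corrects background, gives the arrays the same distribution of probe intensities and then summarises these by probe set.

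The clock is a loop of transcription and repression that runs in nearly every cell, fat and mammary epithelium included. CLOCK pairs with BMAL1, encoded by Arntl, binds E-box sequences and switches on Per, Cry, Nr1d, Dbp and Tef genes, and the PER and CRY proteins then return to block that pair. REV-ERB proteins, encoded by Nr1d1 and Nr1d2, repress Arntl, Nfil3 and other genes through ROR elements (ROREs), while DBP and TEF activate and NFIL3 represses genes with D-boxes, Per genes among them. In mouse tissues outside the brain the Per, Nr1d, Dbp and Tef transcripts therefore peak from midday into the evening, called the evening arm here, and Arntl, Clock, Nfil3 and Cry1 peak from late night to morning, called the morning arm.

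Exact matches to these elements stood in front of some of the genes. The 250 bases before each annotated start in RefSeq (build GRCm38.p6) were searched on both strands for the E-box CACGTG, the D-box in the forms TTATGTAA and TTACGTAA, and a RORE core, TAGGTCA, none of which contains another. Of the 10 listed genes and the morning-arm genes Arntl, Npas2 and Nfil3, 13 in all, 12 had an entry, Per2 being without one. Of these, 5 held a match, and Arntl, Clock, Cry2, Dbp, Npas2, Nr1d1 and Nr1d2 held none. The E-box stood before Cry1, both annotated starts of Tef and an annotated start of Per1, though not before another start of Per1. It occurred in 6.02% of 32851 promoters of this length, a share counted over starts and not over genes. Per3 held the D-box TTATGTAA at 205 and again at 158 bases before its start, a form found in 0.819% of promoters, while TTACGTAA, found in 0.113%, stood before none of the 12. Nfil3 held the RORE core, which occurred in 2.23%, at 12 bases before its start. The sequences below show, in capitals, the E-box of the activated genes, the D-boxes of Per3 and the RORE core of Nfil3 (as its reverse complement), 5′ to 3′ on the gene's strand, and a match is a description of letters and not a site shown to be bound.
Per1, chr11:69098699-69098948, plus strand: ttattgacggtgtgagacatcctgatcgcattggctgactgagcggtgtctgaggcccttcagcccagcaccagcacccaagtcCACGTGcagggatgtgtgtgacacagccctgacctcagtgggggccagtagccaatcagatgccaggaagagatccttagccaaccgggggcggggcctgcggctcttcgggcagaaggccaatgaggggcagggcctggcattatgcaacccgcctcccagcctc
Tef, chr15:81802423-81802672, plus strand: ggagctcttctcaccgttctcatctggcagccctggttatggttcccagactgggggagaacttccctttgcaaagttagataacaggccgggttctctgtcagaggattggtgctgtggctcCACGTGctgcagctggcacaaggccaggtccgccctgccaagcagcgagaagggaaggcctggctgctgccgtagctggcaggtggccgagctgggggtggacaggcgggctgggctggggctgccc
Per3, chr4:151044666-151044915, minus strand: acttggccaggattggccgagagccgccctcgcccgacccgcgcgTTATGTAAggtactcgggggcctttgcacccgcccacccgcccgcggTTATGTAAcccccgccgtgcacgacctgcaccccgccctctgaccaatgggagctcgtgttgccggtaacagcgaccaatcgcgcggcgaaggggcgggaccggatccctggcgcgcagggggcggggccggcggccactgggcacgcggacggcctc
Cry1, chr10:85185055-85185304, minus strand: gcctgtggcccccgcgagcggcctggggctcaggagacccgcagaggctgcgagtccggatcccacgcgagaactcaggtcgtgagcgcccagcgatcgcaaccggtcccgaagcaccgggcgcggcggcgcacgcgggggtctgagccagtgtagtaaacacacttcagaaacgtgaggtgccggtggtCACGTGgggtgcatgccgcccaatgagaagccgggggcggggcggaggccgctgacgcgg
Nfil3, chr13:52981040-52981289, minus strand: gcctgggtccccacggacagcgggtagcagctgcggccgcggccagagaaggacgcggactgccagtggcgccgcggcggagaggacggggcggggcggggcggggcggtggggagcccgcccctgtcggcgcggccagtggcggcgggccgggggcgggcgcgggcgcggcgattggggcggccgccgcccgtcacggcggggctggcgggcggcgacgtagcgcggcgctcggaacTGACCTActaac

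The targeted gene was checked first. Mmp14 had 8.92 and 8.73 in wild-type glands and 5.83 and 5.68 in knockout glands, with -3.07 ± 0.12 (SE, n = 2 per group) between the means and adjusted p = 0.0738 in limma after Benjamini-Hochberg adjustment over all genes. White fat genes, Adipoq and Fabp4 among them, were bright in every array as a sum on the linear scale, between 35613 and 44929. Of the 9 tested, 3 were higher and 6 lower in the knockout mean. Their differences ran from -4.998 to 0.285 around a median of -0.192. Luminal epithelial markers summed to between 925 and 2748. The knockout arrays were less alike than the wild-type arrays, with median gaps of 0.214 and 0.0785 per gene. In knockout replicate 2 the skeletal muscle markers had a median 5.37 over that of wild type, and in knockout replicate 1 those of epidermis and hair follicle had one of 2.90. Each clock gene is therefore given array by array.

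In the knockout glands most genes of the evening arm had higher values, and those of the morning arm lower values, than in wild type. Per1, Per2, Per3, Nr1d2 and Tef lay above both wild-type arrays in both knockout arrays, by 1.72- to 2.12-fold in the mean, and so did Cry2, by 1.40-fold. Clock and Cry1 lay below both wild-type arrays in both knockout arrays, by 1.32- and 1.21-fold. Dbp was 4.05-fold higher in knockout replicate 2 and at -0.16 (log2) from the wild-type mean in knockout replicate 1. Of the 9 clock genes 6 thus lay higher and 2 lower without overlap of the groups, where 26.3% and 32.5% of the 11074 genes tested did so.

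None of these differences passed the test across all genes. With limma and Benjamini-Hochberg adjustment at 0.05, 0 of the 9 clock genes passed, as did 0 of all 11074 genes (0%), and the adjusted p of the clock genes ran from 0.154 to 0.523. With the limma p taken unadjusted at 0.05, 5 clock genes were higher (Per1, Per3, Cry2, Nr1d2 and Tef) and 1 was lower (Clock), where 1074 genes (9.7%) were higher and 1336 (12.1%) lower. The median difference of the 9 clock genes was 0.93, against -0.023 over all genes tested.

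**Figure D1:**
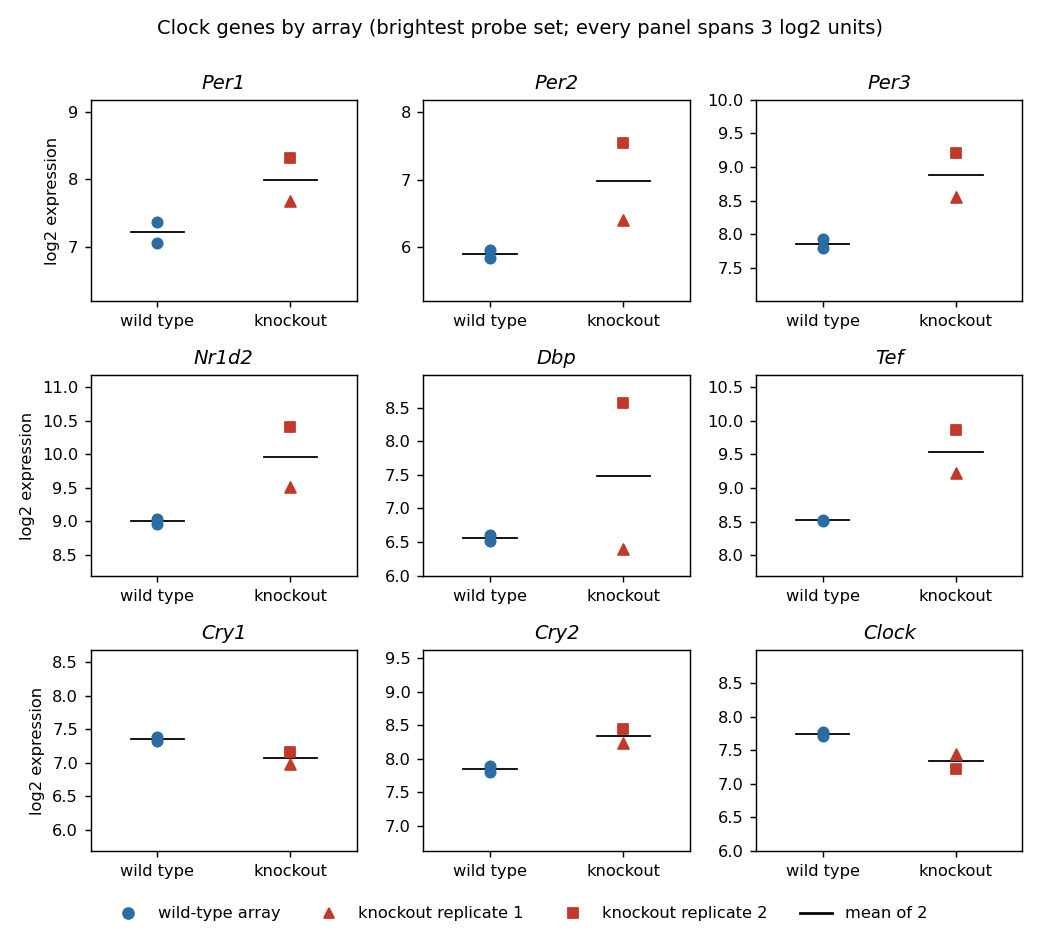
Log2 expression of the 9 measured clock genes in each array, with wild-type arrays as circles, knockout replicate 1 as a triangle, knockout replicate 2 as a square and the mean of each genotype as a line. The wild-type arrays lie within 0.31 of each other in every panel, and both knockout arrays lie above them for Per1, Per2, Per3, Nr1d2, Tef and Cry2, below them for Cry1 and Clock, and on either side for Dbp.

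Among the Period genes, which encode the repressors that time the loop, Per3 had 7.80 and 7.92 in wild-type glands and 8.55 and 9.21 in knockout glands. The knockout arrays were both higher and the wild-type pair close together, for a difference of 1.02 ± 0.25 (SE, n = 2 per group, limma adjusted p = 0.161). Per2, a core repressor needed for a stable rhythm, had 5.83 and 5.95 in wild-type glands and 6.40 and 7.54 in knockout glands. Its difference of 1.08 ± 0.42 (limma adjusted p = 0.253) came mostly from knockout replicate 2, at 1.65 over the wild-type mean, with 0.51 in knockout replicate 1.

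Per1, which also responds quickly to cAMP, calcium and glucocorticoid signals, had 7.06 and 7.37 in wild-type glands and 7.68 and 8.31 in knockout glands. Its wild-type arrays were the least alike of the 9 genes, 0.31 apart, and the groups still did not overlap, with a difference of 0.78 ± 0.27 (SE, n = 2 per group, limma adjusted p = 0.218). All Period genes thus had the same order over the arrays, with knockout replicate 2 highest and knockout replicate 1 next.

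Nr1d2 encodes REV-ERB beta, a heme-binding nuclear receptor that represses genes of the morning arm. It had 8.96 and 9.04 in wild-type glands and 9.51 and 10.4 in knockout glands, a difference of 0.95 ± 0.33 (SE, n = 2 per group, limma adjusted p = 0.222). Both knockout arrays were higher, knockout replicate 2 by 2.63-fold. Nr1d2 is the only one of the 10 genes on chromosome 14, where Mmp14 also lies, with 1001 annotated genes, 365 of them protein-coding, between them in RefSeq.

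Tef and Dbp encode activators of the PAR bZIP family that bind D-boxes and carry clock timing to metabolic genes. Tef had 8.51 and 8.53 in wild-type glands and 9.23 and 9.86 in knockout glands, a difference of 1.02 ± 0.24 (SE, n = 2 per group). Its adjusted p of 0.154 in limma was the lowest of the 9 genes, and its wild-type arrays were the closest pair, 0.015 apart.

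Dbp, known for its wide daily swing, had 6.61 and 6.51 in wild-type glands and 6.40 and 8.58 in knockout glands. The knockout arrays lay on opposite sides of the wild-type pair, at -0.16 and 2.02 from its mean, so the difference of 0.93 ± 0.78 (SE, n = 2 per group, limma adjusted p = 0.523) rests on knockout replicate 2. Without that array it was -0.16. Hlf, the remaining activator of the family, had the same pattern on a smaller scale, with 6.33 and 6.43 in wild-type glands and 6.06 and 6.91 in knockout glands.

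The Cryptochromes, partners of PER in repression, went opposite ways. Cry2 had 7.80 and 7.90 in wild-type glands and 8.24 and 8.44 in knockout glands, a difference of 0.49 ± 0.12 (SE, n = 2 per group, limma adjusted p = 0.157). Cry1, which carries ROREs besides E-boxes and peaks later, had 7.32 and 7.38 in wild-type glands and 6.98 and 7.17 in knockout glands, a difference of -0.28 ± 0.11 (limma adjusted p = 0.266). Neither pair of groups overlapped. Cry1 was the only one of the 9 genes that lay farther from wild type in knockout replicate 1 than in knockout replicate 2, at -0.37 and -0.19.

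Clock, which encodes the DNA-binding partner of BMAL1, had 7.77 and 7.71 in wild-type glands and 7.45 and 7.22 in knockout glands. Both knockout arrays were lower, with a difference of -0.41 ± 0.12 (SE, n = 2 per group, limma adjusted p = 0.194).

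Genes with several probe sets gave more than 1 reading of the same difference. Of the 14 probe sets tested, 8 were higher and 3 lower in both knockout arrays, where 25.6% and 32.9% of 16320 single-gene probe sets were, and 0 passed the adjusted threshold, as for all probe sets in limma (0%, while 9.26% were higher and 12.2% lower by an unadjusted limma p of 0.05). For Per3 all 3 probe sets above the limit were higher, by 1.02 ± 0.25, 0.99 ± 0.26 and 0.50 ± 0.19 (SE, n = 2 per group) from the brightest to the dimmest. Its other 2 probe sets, with means of 4.42 and 4.30, lay below the limit and differed by 0.18 and 0.0045.

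The 4 probe sets of Clock disagreed in size. The second brightest, with 7.93 and 7.89 in wild-type glands and 7.38 and 6.58 in knockout glands, differed by -0.93 ± 0.30 (SE, n = 2 per group), more than the leading one, whereas the remaining pair differed by -0.17 ± 0.17 and -0.011 ± 0.11 and their groups overlapped. Per2, Nr1d2 and Tef each had a further probe set below the limit, with means of 4.57, 3.93 and 4.39 and differences of 0.065, 0.15 and -0.11. Averaging all probe sets of a gene therefore gave smaller differences, 0.57 for Per2, 0.54 for Per3, 0.55 for Nr1d2 and 0.45 for Tef.

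**Figure D2:**
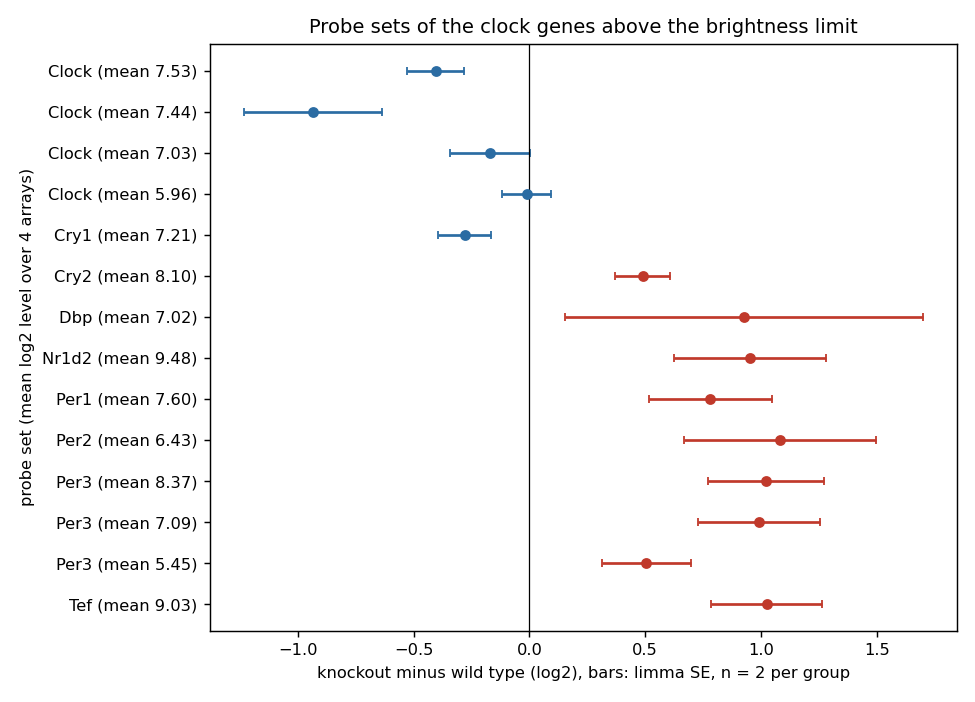
Difference between knockout and wild type (log2, with limma's SE as bars, n = 2 per group) for the 14 clock gene probe sets above the brightness limit, each named by its gene and its mean level. The 3 probe sets of Per3 lie above 0 and those of Clock run from -0.93 to -0.011.

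The other genes of the loop place these values in its arms. Arntl, which encodes BMAL1, had 6.16 and 6.04 in wild-type glands and 5.79 and 4.65 in knockout glands, a difference of -0.88 ± 0.42 (SE, n = 2 per group, limma adjusted p = 0.309). A second Arntl probe set lay close to the brightness limit, and with probe sets that can match several transcripts left out it was the one read and gave 0.014. Nfil3, the D-box repressor shown above with its RORE core, had 6.11 and 6.24 in wild-type glands and 5.76 and 4.61 in knockout glands, a difference of -0.99 ± 0.42 (limma adjusted p = 0.280). Both genes were lower in both knockout arrays and lowest in knockout replicate 2, where they lay under the brightness limit and RMA compresses differences. Npas2, which can replace Clock, was below the brightness limit at 4.69 and 4.63 against 4.58 and 4.76, so no difference could be read.

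The arms were then compared within each array, with every gene taken as its difference from the wild-type mean. The median of the evening arm (Per1, Per2, Per3, Nr1d2, Dbp and Tef) was -0.048 and 0.048 in the wild-type arrays, with 0.51 in knockout replicate 1 and 1.37 in the other knockout array. The median of the morning arm (Clock, Cry1, Arntl and Nfil3) was -0.0021 and 0.0021 in wild type, and -0.34 and -0.99 in knockout replicates 1 and 2. The arms thus lay 0.85 apart in knockout replicate 1 and 2.36 apart in knockout replicate 2, with a mean of 1.61, against -0.046 and 0.046 in the wild-type arrays. The wild-type values lie evenly about 0 because each gene was centred on the mean of those 2 arrays, so they give no independent range for the knockout values. In both knockout arrays the evening arm was the higher one.

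These values give the relative position of the arms and not a phase, since each genotype was sampled at 1 age with 2 arrays and no series over the day. The clock genes were chosen with results of these data known, so the distance between arms is a description without a test.

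**Figure D3:**
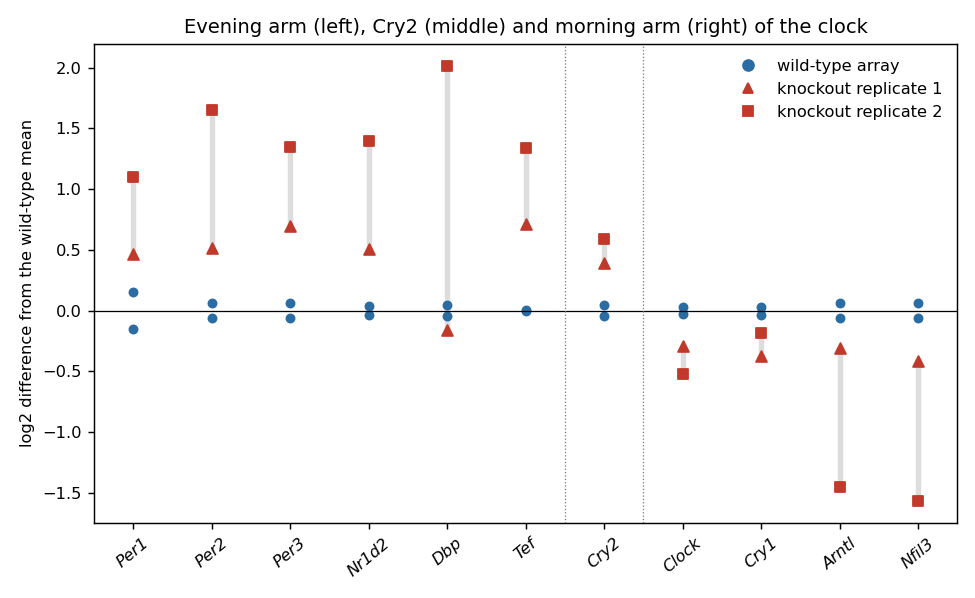
Log2 difference of each clock gene from the mean of the wild-type arrays, for wild-type arrays (circles), knockout replicate 1 (triangles) and knockout replicate 2 (squares), with evening-arm genes on the left, Cry2 in the middle and morning-arm genes on the right. All 4 morning-arm genes are below 0 in both knockout arrays, and the evening-arm genes are above 0 in both except Dbp, at -0.16 in knockout replicate 1.

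Of 17 further clock genes, 11 were tested, and 0 passed the adjusted limma threshold in either direction. Groups did not overlap for 4 that were higher and 3 that were lower, including Arntl and Nfil3. Among all genes tested, 26.3% were higher and 32.5% lower without overlap. The median difference of the 11 genes was -0.13. Rora, an activator at ROREs, had 5.91 and 5.82 in wild-type glands and 6.25 and 6.06 in knockout glands (0.28 ± 0.12, SE, n = 2 per group). The casein kinases that mark PER for degradation were higher by small amounts, Csnk1e by 0.23 ± 0.09 and Csnk1d by 0.15 ± 0.10. Without probe sets that can match several transcripts Csnk1d gave 0.030. Btrc, a subunit of the ligase that removes PER, was higher by 0.21 ± 0.14, with values from 4.80 to 5.21, close to the brightness limit. The kinase gene Gsk3b was lower by 0.13 ± 0.10 on the log2 scale, the remaining one without overlap.

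For the other tested clock genes the knockout arrays parted. Bhlhe40, an E-box repressor, had 8.64 and 8.72 in wild-type glands and 7.84 and 8.72 in knockout glands. Noct, which encodes the rhythmic protein nocturnin, had 8.85 and 8.63 against 9.04 and 7.60, and Timeless had 7.14 and 7.33 against 7.33 and 6.47. Their groups overlapped, as did those of Hlf. Rorb, Bhlhe41, Ciart, Arntl2 and Fbxl21 were below the brightness limit like Npas2.

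Genes that follow the clock in many mouse tissues did not share a direction. Of 10 tested output genes 5 were higher and 5 lower around a median of 0.079, and 0 passed the adjusted limma threshold. Coq10b, which encodes a coenzyme Q binding protein, had 8.97 and 8.77 in wild-type glands and 7.75 and 7.71 in knockout glands, a difference of -1.14 ± 0.11 (SE, n = 2 per group, limma adjusted p = 0.101) and the smallest p on this list. Ypel2 was higher, with 9.14 and 9.15 against 9.53 and 9.91 (0.58 ± 0.16). The fatty acid sensor gene Ppara (-0.69 ± 0.22) and the glucocorticoid-induced leucine zipper gene Tsc22d3 (-0.33 ± 0.10) were lower in both knockout arrays.

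Per1 and Per2 can also be induced by stimuli outside the loop, so the genes that share those inputs were read beside them. Of 12 tested immediate early genes 7 were higher and 5 lower, and the list had a median of 0.11, or -0.12 in knockout replicate 1 and 0.13 in knockout replicate 2, beside -0.12 and 0.12 in the wild-type arrays. Fos was higher in both knockout arrays (0.38 ± 0.14, SE, n = 2 per group), as was Ier2 (0.18 ± 0.11), while Jun (-0.38 ± 0.13) and Nr4a3 (-0.28 ± 0.12) were lower in both.

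Of 11 tested glucocorticoid target genes 8 were higher in both knockout arrays, 2 lower in both and 1 overlapped. Among all genes tested, 26.3% were higher and 32.5% lower in both. The list had a median of 0.34, with 0.28 and 0.35 in the knockout replicates. The metallothionein gene Mt1, which is not Mt1-mmp (0.90 ± 0.20, SE, n = 2 per group), the kinase gene Sgk1 (0.50 ± 0.18) and the cell cycle inhibitor gene Cdkn1a (0.34 ± 0.11) were higher, whereas Tsc22d3 was lower, as above. Mt1 gave -0.019 when probe sets that can match several transcripts were left out. In neither of these lists did a gene pass the adjusted limma threshold.

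Both knockout arrays carried markers of neighbouring tissues, and the clock is active in those tissues as well. Of 15 tested skeletal muscle markers 15 exceeded their wild-type mean in knockout replicate 2 and 1 did in knockout replicate 1, with medians of 5.37 and -0.73, and their summed linear level was 1425 and 4492 for wild-type glands against 968 and 57941 for knockout glands. Of 12 tested epidermis and hair follicle markers 12 exceeded it in knockout replicate 1 and 2 did in knockout replicate 2, with medians of 2.90 and -0.62 and sums of 1062 and 3285 against 13131 and 618. In knockout replicate 1, with the higher epidermal markers, the evening arm stood at 0.51 and the morning arm at -0.34. In knockout replicate 2, with the higher muscle markers, the arms stood at 1.37 and -0.99.

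The wild-type arrays also differed in these markers, with muscle medians of -0.63 and 0.63 and epidermal medians of -0.40 and 0.40. Both ranges were narrower than those of the knockout arrays. The evening-arm medians of the wild-type arrays were -0.048 and 0.048. Brown fat markers were lower in both knockout arrays, at medians of -0.76 and -0.87 and sums of 9462 and 6678 against 16711 and 17835. Luminal epithelial markers were at 0.93 and 0.62, beside 0.51 and -0.51 in wild type. The part of these tissues in the clock gene differences was not tested.

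**Figure D4:**
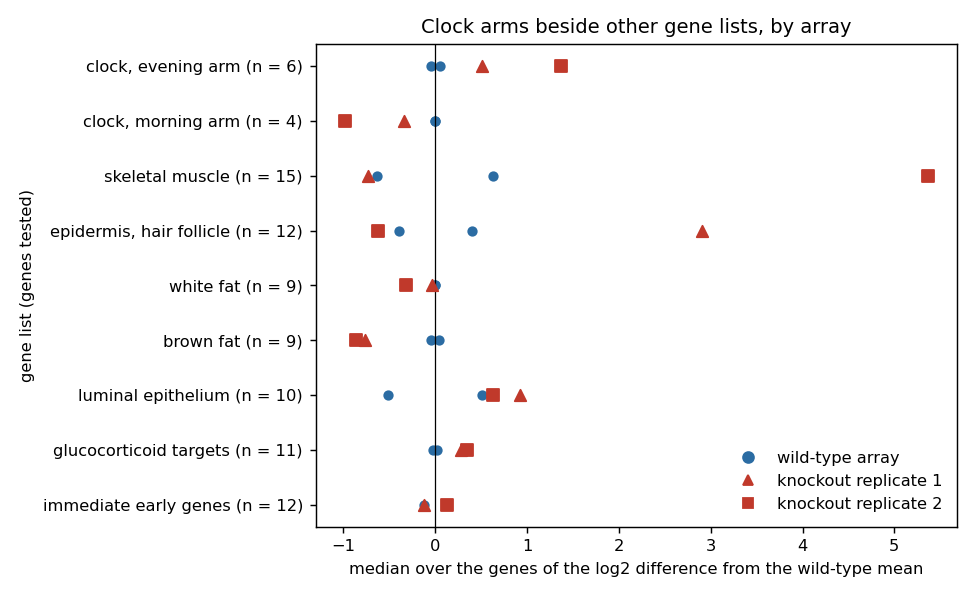
Median log2 difference from the wild-type mean over the tested genes of each list, for wild-type arrays (circles), knockout replicate 1 (triangle) and knockout replicate 2 (square). The arms of the clock part in both knockout arrays, most in knockout replicate 2. Muscle markers stand at 5.37 in knockout replicate 2 and -0.73 in the other, and epidermal markers at -0.62 and 2.90.

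The calls depended on the knockout arrays. Without knockout replicate 1, limma called 8 of the 9 clock genes, 7 higher and 1 lower, all but Cry1, where 37.7% of all genes were called, 13.1% higher and 24.6% lower. Without knockout replicate 2 it called 3 of the 9 higher, where 11.7% of all genes were called, namely Tef (0.71, adjusted p = 0.0315), Per3 (0.70, 0.0371) and Nr1d2 (0.51, 0.0466), and 0 lower, beside 6.74% higher and 4.99% lower among all genes. Over the 4 fits that left out 1 array, adjusted p ranged from 0.00596 to 0.846 for Tef, from 0.00744 to 0.846 for Per3 and from 0.00642 to 0.859 for Nr1d2. Each fit without a knockout array takes the spread of the wild-type arrays for the single knockout array as well.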

How the data were processed

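RNA of 2 wild-type and 2 knockout mammary glands was read on 1 array each. The deposited values are log2 expression that the authors made with RMA, run in affy (an R package), per the submitters' processing notes. Versions are not given in the sources used here, and the log2 scale was read from the values. Gene names came from a platform annotation. Of 45141 probe sets, 28898 had 1 gene, 551 several and 15692 none or were controls (104), and only the first were used. Gene identifiers of 28689 matched RefSeq.

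The brightest probe set per gene was compared with limma 3.58.1 in R 4.3.3 (lmFit, eBayes, no covariate, Benjamini-Hochberg adjustment at 0.05), as was every single-gene probe set in a fit of its own. Probe sets with a mean under 4.95 were left out. Tests were checked on simulated data with changes larger than the mean difference of any clock gene, so changes of that size were not covered. With 2 arrays per group a permutation test of 1 gene cannot reach 0.05, and no detection calls or depth apply to arrays, whose number limits the precision. The wild-type mice were littermates of the knockout mice, but nothing says which samples share a litter, so litter was not modelled. The p-values set each difference against the spread between these samples, moderated over all genes.

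The clock genes and lists were chosen with earlier results of these data known. Named were all 10 clock genes, all measured partners, and up to 4 genes of smallest p from the output, immediate early and glucocorticoid lists. Alternatives were other brightness filters, probe set rules, scalings, variance priors, weighted arrays, a block for the replicate number, the omission of single arrays, and other make-ups of the arms.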

Additional observations from a re-analysis of the deposited data

How the results depend on the processing

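With all 4 arrays kept, the 9 clock genes kept their direction and stayed short of the adjusted threshold in 97 of 97 values, with limma adjusted p from 0.122 to 0.626, and 0 genes of the array passed in those refits. The distance between the arms stayed positive in all 15 of its alternatives, from 0.85 to 2.36. Scaling moved the median over all genes by under 0.1. Without probe sets that can match several transcripts (suffix x, s or a) the difference turned to 0.014 for Arntl and to -0.019 for Mt1. A dimmer probe set is then read. Cry1, whose only probe set has the suffix a, was not read in that setting.

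Leaving out 1 array moved the calls, and the lone array is then assumed to vary like the other genotype. Genes called ranged from 0 (without either wild-type array) to 4173, with 1299 without knockout replicate 2, and single probe sets from 0 to 6149. Differences ranged from -3.17 to -2.97 for Mmp14, from 0.46 to 1.10 for Per1, from 0.51 to 1.65 for Per2, from 0.70 to 1.35 for Per3, from 0.39 to 0.59 for Cry2, from -0.52 to -0.29 for Clock, from 0.51 to 1.40 for Nr1d2, from -0.16 to 2.02 for Dbp and from 0.71 to 1.34 for Tef. They changed sign for Dbp and also for Hlf (-0.32 to 0.53), Bhlhe40 (-0.84 to 0.037), Timeless (-0.76 to 0.090) and Noct (-1.14 to 0.30). With the replicate number as a block, 0 genes and 0 probe sets passed and Tef had adjusted p = 0.259, so the block changed no call. Deviations of same-numbered samples correlated at -0.0884, so the numbers were not taken as pairs.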
